A study of Homo sapiens with 2 samples.

Results

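FURIN, PCSK7, HTRA1, PRSS35, BMP1 and PRSS23 encode proteases of the secretory pathway or proteins built like them. The 6 genes were picked by name, with the ratio between these libraries already known for several of them, and all 6 matched 1 gene ID each among the 36601 genes in the files. They were followed in HT1080, an established human fibrosarcoma line, grown as spheroids of 2000 cells. Its genotype is given as wild type, which does not speak to mutations of the tumour itself. About 50 spheroids per sample were set in 500 µl of collagen and left to invade for 72 h. The 4B4 culture had 2 µg/ml of 4B4, an antibody that inhibits β1 integrin, the chain shared by the main collagen receptors, in its medium. The control culture had none, and its label names no other antibody. Each condition is 1 library, so treatment and library cannot be told apart, no test was possible, and every interval below is a 95% counting interval that says nothing about other cultures.

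After filtering, 1385 4B4 cells and 3402 control cells were compared, with 116451080 and 127218114 UMIs (unique molecular identifiers, each a counted transcript). The 4B4 cells were deeper, with a median of 68556 UMIs per cell against 32914 in control cells. Levels are therefore given as UMIs per 1000000 UMIs of the library (UPM), and shares of cells after each cell was thinned to 17000 UMIs. Of 10 mesenchymal markers 9 reached 5 UPM, with 3474 and 3459 UPM in sum in the 4B4 and control libraries. The near-equal sums hide markers that went apart: FN1 (0.80, as the log2 ratio of 4B4 over control) and MMP14 (0.61) were higher in 4B4 cells, CAV1 (-1.22) and AXL (-0.89) were lower, VIM had -0.39, and the median was -0.36. CLDN4, CD68 and PECAM1 were the markers of epithelial, leukocyte and endothelial cells that reached 5 UPM. PECAM1 had 45.8 UPM in 4B4 cells and 30.3 UPM in control cells (0.59), CD68 had 38.4 and 26.5 UPM (0.54) and CLDN4 had 13.8 and 11.2 UPM (0.30), and their part in the results below was not tested. By contrast, KRT5 and MS4A1 had no UMI and of the remaining markers of those types EPCAM was highest, with 1.66 UPM in 4B4 cells and 2.00 UPM in control cells. ITGB1, the gene of the antibody's target, had 780 UPM in 4B4 cells and 642 UPM in control cells, which does not measure how well the protein was blocked.

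Many secreted and membrane proteins are made as inactive precursors. Proprotein convertases such as furin cut them after pairs of basic residues in the late Golgi, at the cell surface or in endosomes, and so activate membrane-type matrix metalloproteinases, growth factors, receptors and integrin α chains. Other proteases of the pathway act outside the cell: BMP1 trims fibrillar procollagens so that fibrils can form, and HTRA1 degrades matrix proteins such as fibronectin.

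The upstream sequences of FURIN, HTRA1 and PRSS35, the 3 members that were at least 1.5-fold higher in the 4B4 library, are shown because these genes moved the same way. They come from RefSeq (GRCh38.p14), and each is the 250 bases before a start on the plus strand. The search used 9 start sites of 5 of the 6 genes, and no start of BMP1 was used. Motifs were searched in windows that also held the 50 bases after the start. Capitals mark matches, on either strand, to GGGCGG (the SP1 box, present in 45.0% of 35116 promoter windows of the same 300 bases), CAGACA (a SMAD box, 16.9%) and TATAAA (the TATA box, 11.5%).
FURIN, first of 4 starts, chr15:90868338-90868587: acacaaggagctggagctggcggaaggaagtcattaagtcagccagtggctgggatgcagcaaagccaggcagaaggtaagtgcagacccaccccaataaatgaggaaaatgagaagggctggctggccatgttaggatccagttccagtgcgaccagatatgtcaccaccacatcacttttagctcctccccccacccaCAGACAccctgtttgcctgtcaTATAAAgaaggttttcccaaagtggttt
HTRA1, chr10:122461303-122461552: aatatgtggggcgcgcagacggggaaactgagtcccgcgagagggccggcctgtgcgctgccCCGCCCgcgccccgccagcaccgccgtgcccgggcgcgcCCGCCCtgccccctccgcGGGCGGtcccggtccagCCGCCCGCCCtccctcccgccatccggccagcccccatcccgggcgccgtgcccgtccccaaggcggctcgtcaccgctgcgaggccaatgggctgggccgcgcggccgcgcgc
PRSS35, chr6:83512284-83512533: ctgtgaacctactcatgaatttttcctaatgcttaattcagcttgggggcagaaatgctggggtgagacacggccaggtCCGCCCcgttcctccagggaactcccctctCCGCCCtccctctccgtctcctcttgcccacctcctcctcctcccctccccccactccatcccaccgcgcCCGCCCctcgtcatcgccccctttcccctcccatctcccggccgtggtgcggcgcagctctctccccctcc
The first FURIN start had the SMAD box 50 bases and the TATA box 28 bases before it, and 1 SP1 box after it, outside the bases shown. The second FURIN start had 4 matches to the SP1 box and the third had 3, as HTRA1 had 5 and PRSS35 had 3, with no TATA box in any of these windows. SP1 boxes were not particular to the higher members. They also lay before the second start of PRSS23, which was lower in the 4B4 library, and before the start of PCSK7, which was level. HTRA1 had 80.7% GC, the second FURIN window 80.3%, the third 78.3% and PRSS35 66.7%, against a median of 58.7% over all promoter windows. The first FURIN window had 53.3% and the fourth 56.7%. PCSK7 had 76.0% and the PRSS23 windows 49.0% and 79.3%, so high GC was not particular to the higher members. The fourth FURIN start had no SP1 box, but a SMAD box and TGACNNNGC, the core letters bound by NRF2, which occur in 13.3% of all windows. GGAATG, the letters bound by TEAD factors, was searched on both strands and occurs in 14.0% of all windows. TGANTCA, the AP-1 site, occurs in 7.71%. Neither was found in any of the 9 windows. A match, or its lack, describes letters only and gives no site of binding.

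In the GENCODE 29 annotation of GRCh38, FURIN lies on chromosome 15 from 90868592 to 90883458 on the plus strand and HTRA1 on chromosome 10 from 122458551 to 122514908, also on the plus strand. PRSS35 lies on chromosome 6 from 83512538 to 83525704 and BMP1 on chromosome 8 from 22164736 to 22212326, both on the plus strand. PCSK7 and PRSS23 are both on chromosome 11, PCSK7 from 117204337 to 117232525 on the minus strand and PRSS23 from 86791059 to 86952910 on the plus strand. PCSK7 overlaps TAGLN, a smooth muscle actin-binding gene on the opposite strand, over 446 bases, and whether counting used the strand is not given in the sources used here. TAGLN had 14.3 UPM in 4B4 cells and 28.4 UPM in control cells. The levels are 3′ tag counts and are compared between samples and cells, not between genes.

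PRSS35, HTRA1 and FURIN were higher, and PRSS23 lower, in the 4B4 library by at least 1.5-fold, while BMP1 stayed just below that size and PCSK7 was level. That is 3 of 6 members higher and 1 lower, beside 2.1% of the 11359 genes of at least 5 UPM that were higher and 5.82% that were lower. The members had been chosen with several of these ratios known, so the counts are a description. The median log2 ratio of all measured genes was -0.01.

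FURIN, the best known convertase, had 41.6 UPM (40.4 to 42.7) in 4B4 cells and 26.1 UPM (25.2 to 27.0) in control cells, a log2 ratio of 0.67 (0.61 to 0.74). The ratio was 0.58, just under 1.5-fold, with phases weighing the same, and 0.48 among cells of 20000 to 60000 UMIs in both libraries. PCSK7, a related convertase of the trans-Golgi network, had 23.1 UPM (22.2 to 24.0) in 4B4 cells and 22.8 UPM (22.0 to 23.6) in control cells, a log2 ratio of 0.02 (-0.06 to 0.09). So the 2 convertases of this group stood apart in ratio, with FURIN higher in 4B4 cells and PCSK7 within the counting error of 0.

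HTRA1, the secreted serine protease, had 449 UPM (445 to 453) in 4B4 cells and 249 UPM (246 to 252) in control cells, a log2 ratio of 0.85 (0.83 to 0.87). PRSS35, annotated as a trypsin-like protein without a working active site, had 22.1 UPM (21.3 to 23.0) in 4B4 cells against 8.43 UPM (7.93 to 8.95) in control cells. Its log2 ratio of 1.39 (1.29 to 1.498) was exceeded by 12 of the measured genes. Per cell, before scaling by depth, PRSS35 averaged 1.86 UMIs in 4B4 cells and 0.315 UMIs in control cells.

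PRSS23, a secreted trypsin-like protease, was the member lower under 4B4, with 47.4 UPM (46.2 to 48.7) in 4B4 cells and 83.3 UPM (81.7 to 84.9) in control cells, a log2 ratio of -0.81 (-0.86 to -0.77). BMP1, the procollagen C-proteinase, had 20.6 UPM (19.8 to 21.5) in 4B4 cells and 14.5 UPM (13.8 to 15.2) in control cells, a log2 ratio of 0.51 (0.42 to 0.60). It did not reach 1.5-fold under any of 13 alternative settings. In G1 cells alone the log2 ratios were 0.65 for FURIN, 0.67 for HTRA1, 1.17 for PRSS35 and -0.58 for PRSS23, the last just under 1.5-fold.

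At equal depth the members differed in how many cells held them. HTRA1 was found in 97.5% of 1311 4B4 cells and 89.1% of 3099 control cells. The median 4B4 cell held 7 HTRA1 UMIs and the median control cell 3. FURIN was found in 48.4% (45.6 to 51.1) of 4B4 cells and 34.7% (33.0 to 36.4) of control cells, which without thinning were 82.7% and 54.0%. Cells with 3 or more FURIN UMIs made up 3.36% of 4B4 cells and 1.48% of control cells.

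PRSS35 was concentrated in a minority of cells. It was found in 25.2% (22.8 to 27.6) of 4B4 cells and 11.7% (10.6 to 12.9) of control cells, and unthinned in 50.8% and 18.7%. A Poisson spread of the same mean would have put it in 35.7% of 4B4 cells and 15.1% of control cells. Its variance was 2.59 times its mean in 4B4 cells and 1.82 times in control cells. Before thinning, the 1% of cells richest in PRSS35 held 11.0% of its UMIs in the 4B4 library and 19.1% in the control library. Without them the log2 ratio was 1.54. The unthinned means were 1.86 and 0.315 UMIs per cell, so these shares are not set against each other. The higher level in 4B4 cells was thus both in more cells with a UMI and in more cells with several, since 4.20% of 4B4 cells and 0.936% of control cells held 3 or more.

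PRSS23 was found in 43.0% (40.3 to 45.8) of 4B4 cells and 59.2% (57.5 to 61.0) of control cells. Unthinned, the shares were 73.9% and 71.9%, so the lower share in 4B4 cells was not seen without thinning. Cells with 3 or more PRSS23 UMIs were 7.78% of 4B4 cells and 19.2% of control cells. PRSS23 was also uneven, with a variance 1.93 times the mean in 4B4 cells and 2.36 times in control cells. HTRA1 had the largest such values of the members, 3.88 and 3.20, at means of 8.06 and 4.27 UMIs per cell.

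BMP1 was found in 29.1% of 4B4 cells and 21.4% of control cells, unthinned in 70.8% and 38.6%. PCSK7 was found in 30.2% (27.7 to 32.8) of 4B4 cells and 29.9% (28.3 to 31.6) of control cells, unthinned in 68.7% and 49.2%. BMP1 lay close to a Poisson spread, with a variance 1.02 times the mean in 4B4 cells and 1.06 times in control cells, as did FURIN with 1.04 and 1.08. For comparison, PTPRC, a leukocyte gene, had a UMI in 1.37% of 4B4 cells and 1.58% of control cells, so the 6 members stood above the share of that gene in both libraries. PECAM1, an endothelial gene, had a UMI in 47.3% of 4B4 cells and 35.2% of control cells, a share that several members did not reach. With a single cell line there was no cell type lacking the members in which to read free RNA.

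**Figure D1:**
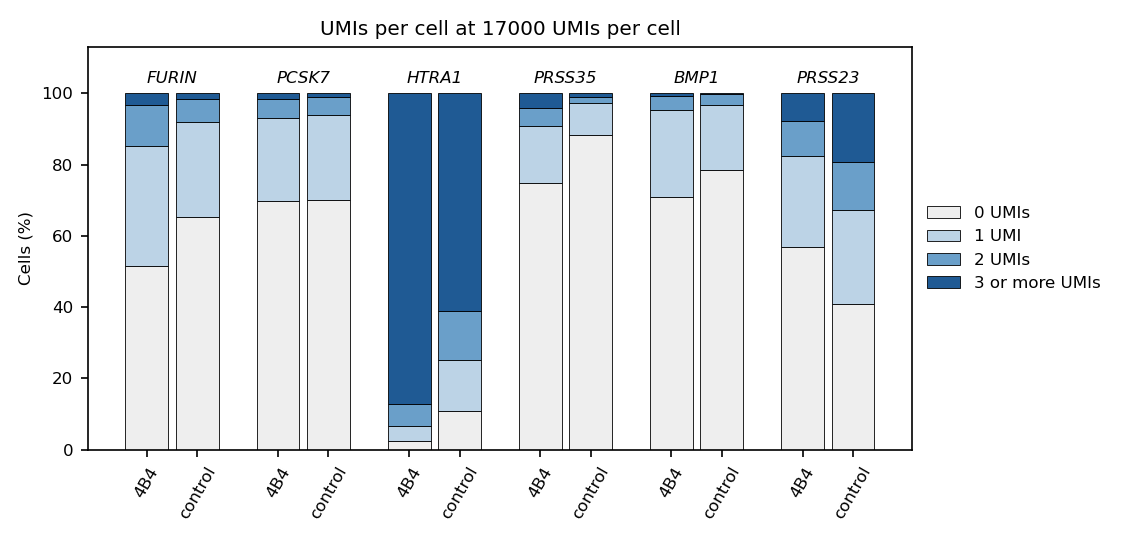
Share of cells (%, y axis) with 0, 1, 2 or at least 3 UMIs of each gene after thinning every cell to 17000 UMIs, for 1311 4B4 cells (left bar of each pair) and 3099 control cells (right bar). HTRA1 is in 97.5% of 4B4 cells and 89.1% of control cells, PRSS35 in 25.2% and 11.7%, and PRSS23, the reverse case, in 43.0% and 59.2%.

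Cells with 2 or 3 of the 6 genes were the most frequent in both libraries. At equal depth 34.8% of 4B4 cells and 32.2% of control cells held 3 of the 6 genes, and all 6 were seen in 4 of the 4B4 cells and 1 control cell. Across 1151 G1 cells of the 4B4 library and 2108 of the control library, Pearson's r between pairs of members lay between -0.08 and 0.08 in 4B4 cells and between -0.16 and 0.05 in control cells. Correlations this weak in sparse counts are no finding.

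Phase calls split the members clearly. PRSS23 was higher in S and G2M than in G1 cells, HTRA1 was lower in both, PRSS35 was lower in G2M cells, and FURIN lay within 0.20 of 0 on the log2 scale. G1 held 87.8% of 4B4 cells and 68.0% of control cells, so the make-up of the libraries differed. The G1 log2 ratios given above show the libraries at a matched phase. None of the 6 genes is on a phase list. PCSK7 lay within its counting error of G1 in the 4B4 library, with 22.1 UPM (15.1 to 31.3) in G2M and 23.2 UPM (21.1 to 25.4) in G1. In the control library it had 25.1 UPM in G2M and 21.0 UPM in G1, a ratio of 0.25 (0.05 to 0.46). At 10000 UMIs per cell its ratio of G2M over G1 was 0.78 in the 4B4 library and 0.01 in the control library.

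PRSS23 had 41.4 UPM (38.6 to 44.4) in G1, 69.0 UPM (55.4 to 85.0) in S and 69.2 UPM (56.3 to 84.2) in G2M cells of the 4B4 library. In the control library it had 63.0 UPM (60.4 to 65.7) in G1, 118.0 UPM (110 to 127) in S and 118.2 UPM (112 to 125) in G2M cells. The log2 ratio of G2M over G1 was 0.74 (0.43 to 1.04) in 4B4 cells and 0.91 (0.81 to 1.01) in control cells. PRSS23 was thus higher outside G1 in both libraries, and lower in 4B4 than in control cells at each phase. It was the 1 member of 6 that was at least 1.5-fold higher in G2M of the 4B4 library, beside 14.4% of all genes of at least 20 UPM, and 1 of 4 at that level in the control library, beside 13.4%. For S the background was 17.7% in the 4B4 library and 12.1% in the control library.

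HTRA1 had 493 UPM in G1, 367 UPM in S and 321 UPM in G2M cells of the 4B4 library, and 291, 187 and 154 UPM at the same phases of the control library. The log2 ratio of G2M over G1 was -0.62 (-0.76 to -0.48) in 4B4 cells and -0.91 (-0.99 to -0.84) in control cells. PRSS35 had 27.5 UPM (25.2 to 29.9) in G1, 20.4 UPM (13.3 to 29.9) in S and 9.69 UPM (5.30 to 16.3) in G2M cells of the 4B4 library. Control cells had 11.0 UPM (9.96 to 12.2) in G1, 8.27 UPM (6.17 to 10.8) in S and 5.78 UPM (4.42 to 7.42) in G2M. These 2 genes were the members at least 1.5-fold lower in G2M of the 4B4 library, beside 3.38% of all genes, and HTRA1 was 1 of 4 in the control library, beside 4.46%, where PRSS35 and BMP1 were under 20 UPM. The count of G2M cells was small in the 4B4 library, 85 against 621 in the control library, and PRSS35 rested on 14 UMIs there.

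**Figure D2:**
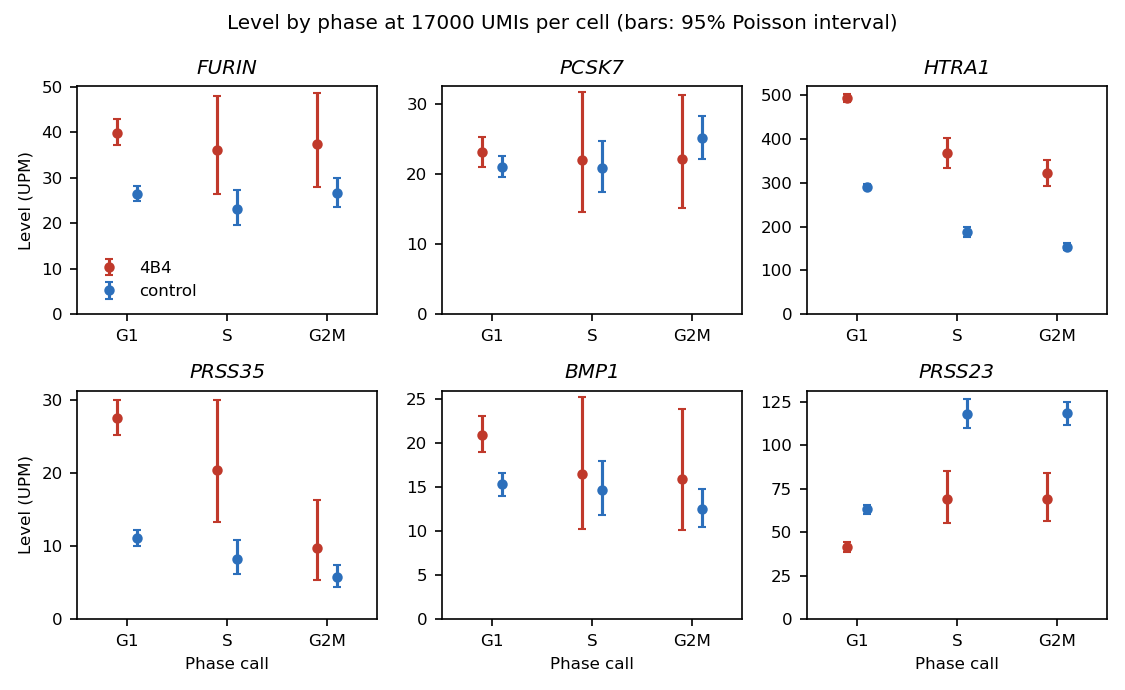
Level (UPM, y axis from 0) of each gene in cells called G1, S or G2M (x axis) at 17000 UMIs per cell, with 95% Poisson intervals, in the 4B4 library (red, left) and the control library (blue, right). HTRA1 goes from 493 UPM in G1 to 321 UPM in G2M in 4B4 cells and from 291 to 154 UPM in control cells, while PRSS23 is higher in S and G2M than in G1 in both.

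Within G1, cells were ranked by 6 measures, and the highest quartile was set against the lowest. The measures were summed UMIs of YAP targets, TGF-beta response genes, ER stress genes and oxidative stress genes, the nuclear RNA MALAT1, and the mitochondrial share of UMIs. Such rankings move many genes at once, so each count of members is read beside its background of all genes of at least 20 UPM.

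ER stress genes here include chaperones, folding enzymes and transcription factors induced when unfolded protein builds up in the secretory pathway. Ranking by them moved few genes: 3.5% were at least 1.5-fold higher in the 4B4 library and 0.41% in the control library. In the 4B4 library HTRA1 and PRSS35 were 2 of 6 members past that size. HTRA1 had 594 UPM in the highest and 357 UPM in the lowest quartile, a log2 ratio of 0.73 (0.65 to 0.82), and PRSS35 had 31.4 and 19.9 UPM, a ratio of 0.66 (0.28 to 1.04). In the control library HTRA1 had 317 and 246 UPM, a ratio of 0.37 (0.29 to 0.45). PRSS35 there had 14.7 and 7.26 UPM, a ratio of 1.02 (0.58 to 1.47) below the 20 UPM of the background. The score was a plain sum in which CALR, HSP90B1, HSPA5 and PDIA6 weighed most. They had 522, 455, 254 and 227 of the list's 2039 UPM in 4B4 cells. In control cells they had 517, 433, 242 and 238 of 1973 UPM. HTRA1 and PRSS35 were therefore higher in cells with a larger sum of these ER stress transcripts in each library. Those cells were also shallower, with a median of 58371 UMIs in the highest and 78754 in the lowest quartile of 4B4 cells and 28435 and 34793 in control cells, and the part of depth was not tested. FURIN had smaller differences of the same sign, 0.38 in the 4B4 and 0.33 in the control library, and its 4B4 value was 0.03 at 10000 UMIs per cell.

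YAP targets, genes switched on when YAP enters the nucleus, split the members another way. Their score was also a plain sum, in which TEAD1 weighed most in 4B4 cells, with 133 of the list's 530 UPM. In control cells CCN1 had 157 and TEAD1 155 of 890 UPM. PRSS23 had 56.2 UPM in the highest and 31.2 UPM in the lowest quartile of 4B4 cells, a log2 ratio of 0.85 (0.56 to 1.15), and 88.5 and 45.7 UPM in control cells, a ratio of 0.96 (0.78 to 1.13). At 10000 UMIs per cell the 4B4 ratio of PRSS23 was 0.48, under 1.5-fold. PCSK7 had log2 ratios of 1.33 in 4B4 cells and 0.69 in control cells. These were 2 of 6 members in the 4B4 library, where 45.7% of all genes were as much higher, and 2 of 4 in the control library, where 30.6% were, so in the 4B4 library the count is no more than the background. HTRA1 ran the other way in control cells, with 244 UPM in the highest and 346 UPM in the lowest quartile (-0.50, -0.58 to -0.43), and was near level in 4B4 cells (-0.08, -0.16 to 0.01).

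PCSK7 was the member with the largest ratio by MALAT1, a long RNA kept in the nucleus, in both libraries. Whether intron reads were counted is not given in the sources used here. It had 36.7 UPM in the MALAT1-richest and 10.5 UPM in the MALAT1-poorest quartile of 4B4 cells, a log2 ratio of 1.81 (1.36 to 2.29). In control cells it had 25.8 and 13.7 UPM, a ratio of 0.91 (0.59 to 1.24). PRSS35 was also higher, by 0.59 in 4B4 and 0.73 in control cells, whereas HTRA1 had ratios of -0.20 and -0.11. PCSK7 and PRSS35 made 2 of 6 in the 4B4 library beside 49.0% of all genes, and PCSK7 1 of 4 in the control library beside 43.3%, so a dependence on MALAT1 was common among genes. PCSK7 was level between the libraries over all cells, but without the MALAT1-richest tertile of cells its log2 ratio was -0.20.

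By TGF-beta response genes no member was at least 1.5-fold higher in either library, beside 18.6% of genes higher in the 4B4 library and 4.82% in the control library. HTRA1 had 555 UPM in the highest and 412 UPM in the lowest quartile of 4B4 cells (0.43, 0.35 to 0.51), and 282 and 312 UPM in control cells (-0.15, -0.23 to -0.07), so its direction differed. The ranking score was a plain sum in which ID1 weighed most. It had 526 of the list's 1325 UPM in 4B4 cells and 418 of 1221 UPM in control cells. PRSS23 was higher by 0.46 in both libraries, and its 4B4 ratio was 0.85, past 1.5-fold, at 10000 UMIs per cell. By oxidative stress genes, PCSK7 alone of 6 members was past 1.5-fold lower, in the 4B4 library (-0.97, -1.39 to -0.57), where 38.8% of all genes were. That summed score was mostly the ferritin genes, so it ranked cells chiefly by them. FTL had 15529 UPM and FTH1 6693 UPM of the list's 23187 UPM in 4B4 cells. In control cells they had 11143 and 3658 of 15490 UPM. In G1 cells with a UMI of IL11, a cytokine gene, the members lay within 0.41 log2 of the cells without one in both libraries.

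**Figure D3:**
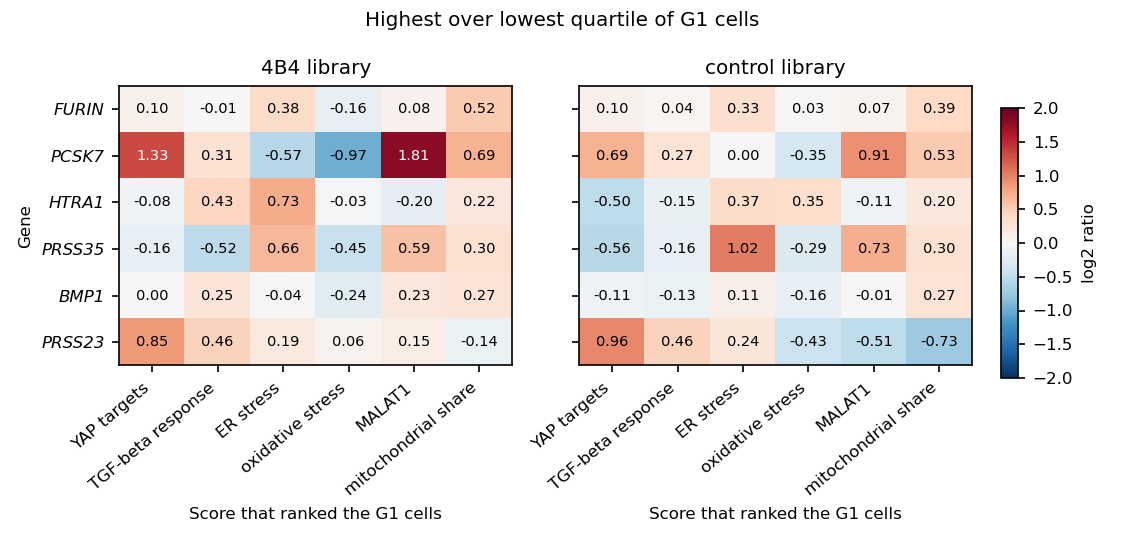
log2 ratio of the level in the highest over the lowest quartile of G1 cells (colour and printed number) for each gene (rows) and each ranking measure (columns), in the 4B4 library (left) and the control library (right). PCSK7 by MALAT1 (1.81 and 0.91), PRSS23 by YAP targets (0.85 and 0.96) and PRSS35 by ER stress (0.66 and 1.02) have the same sign in both, while HTRA1 by TGF-beta response (0.43 and -0.15) has not.

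The share of mitochondrial transcripts went with PRSS23 in the control library and with PCSK7 and FURIN in both. In G1 cells PCSK7 had 30.1 UPM in the highest and 18.7 UPM in the lowest quartile of the 4B4 library, a log2 ratio of 0.69 (0.30 to 1.09), and 25.2 and 17.5 UPM in the control library, a ratio of 0.53 (0.23 to 0.83). At 10000 UMIs per cell the control ratio of PCSK7 was 0.094. FURIN had ratios of 0.52 (0.23 to 0.82) and 0.39 (0.13 to 0.66), and HTRA1 had 0.22 (0.14 to 0.31) and 0.20 (0.12 to 0.28). PCSK7 in the 4B4 library was the 1 of 6 at least 1.5-fold higher, beside 36.6% of all genes, and 0 of 4 were in the control library, beside 1.17%. PRSS23 ran the other way. The 4B4 cells had 46.4 UPM of PRSS23 with 0 to 5% mitochondrial UMIs, 48.7 UPM with 5 to 10% and 45.1 UPM with 10 to 20%. Control cells in the same bins had 126 UPM (120 to 133), 93.5 UPM (91.3 to 95.8) and 55.6 UPM (53.4 to 57.9). The PRSS23 gradient across bins was thus large in control cells and flat in 4B4 cells. The gap between the libraries was smallest in the cells with the highest mitochondrial share. In G1 cells the highest over the lowest quartile gave -0.14 (-0.43 to 0.15) in the 4B4 library and -0.73 (-0.90 to -0.56) in the control library, where 1.84% of all genes were at least 1.5-fold lower. G2M cells had a lower mitochondrial share than G1 cells, with medians of 5.66% and 7.96% in the 4B4 library and 6.94% and 9.85% in the control library. The part of phase in the bins of all cells was not tested.

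HTRA1 and PRSS35 ran the other way across the same bins. HTRA1 had 365, 480 and 498 UPM in 4B4 cells with 0 to 5%, 5 to 10% and 10 to 20% mitochondrial UMIs, and 168, 233 and 296 UPM in control cells. PRSS35 had 12.1, 25.2 and 30.0 UPM in 4B4 cells and 3.63, 8.35 and 9.78 UPM in control cells. Both were higher in 4B4 cells within every bin.

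HTRA1 had a different order of the libraries in the bin of the shallowest cells. Among cells of 20000 to 40000 UMIs it had 475 UPM (459 to 493) in 189 4B4 cells and 251 UPM (246 to 255) in 1656 control cells. Among cells of 40000 to 80000 UMIs it had 498 UPM in 4B4 cells and 254 UPM in control cells. Below 20000 UMIs the order turned, with 168 UPM (139 to 202) in 84 4B4 cells and 275 UPM (263 to 286) in 533 control cells. PRSS35 had its highest level in 4B4 cells of 20000 to 40000 UMIs, 42.2 UPM (37.3 to 47.6) against 10.2 UPM (9.29 to 11.1) in control cells, and 17.0 UPM in 4B4 cells above 160000 UMIs. FURIN was higher in deeper cells of both libraries, with 32.6, 38.7 and 42.5 UPM in 4B4 cells of 20000 to 40000, 40000 to 80000 and 80000 to 160000 UMIs, and 24.7, 26.2 and 31.1 UPM in control cells. PRSS23 was lower in 4B4 than in control cells in each of these bins.

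**Figure D4:**
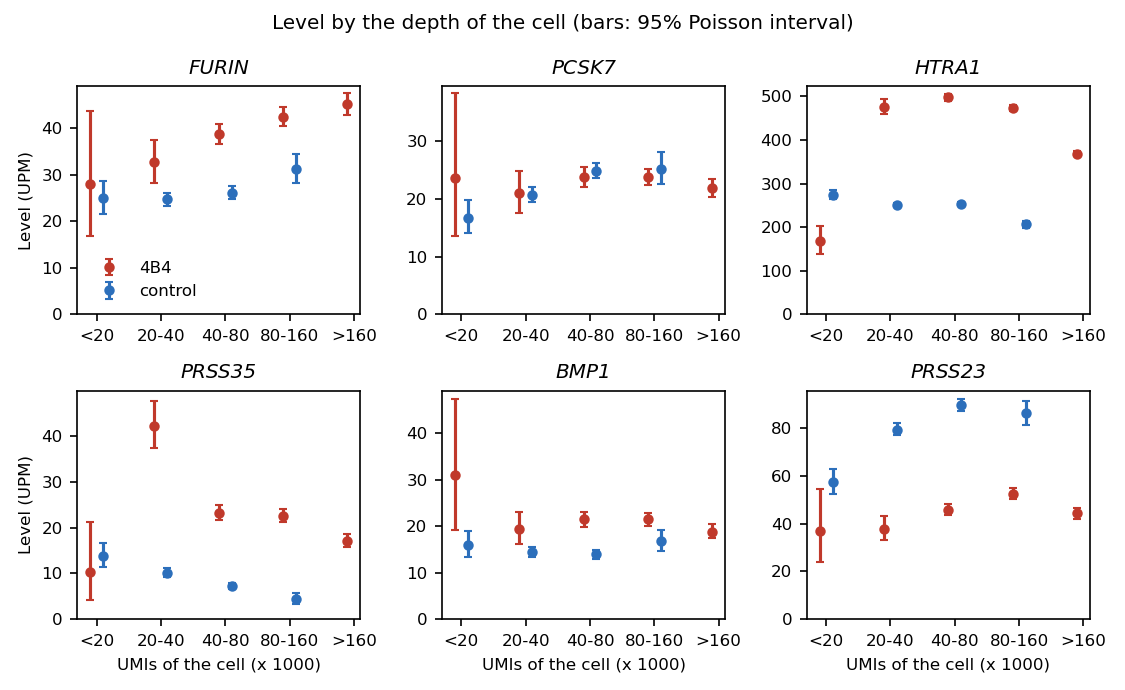
Level (UPM, y axis from 0) of each gene by the total UMIs of the cell (x axis, in units of 1000 UMIs), with 95% Poisson intervals, in the 4B4 library (red, left) and the control library (blue, right); bins with under 20 cells are not drawn. HTRA1 is lower in 4B4 cells under 20000 UMIs (168 against 275 UPM in control cells) and higher in the deeper bins.

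To see which other genes followed each member, levels were correlated over 12 strata (library by phase by MALAT1 above or below the median) after centring each library, among 6229 genes of at least 20 UPM. All strata share the 2 libraries and their depth, so r is a description. PRSS23 was most like MTHFD2 (r = 0.97), TPM1 (0.97) and CYB5B (0.95), which code for a mitochondrial folate enzyme, a tropomyosin and an outer mitochondrial membrane cytochrome. HTRA1 was most like SEZ6L2 (0.98), MRPS6 (0.97) and IFITM3 (0.97), and PRSS35 most like JUN (0.94), TAF13 (0.93) and DECR1 (0.92). PCSK7 was most like NFIX, GNG12 and SLC39A11 (0.97 each). BMP1 was most like GPI (0.91), RANBP3L (0.89) and ATP1B1 (0.87), and FURIN had the weakest matches, SLC4A2 (0.84), MIDN (0.82) and TGFA (0.79).

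The other genes of the convertase machinery lay inside 1.5-fold. Of 9 proprotein convertases 5 were measured at 5 UPM or more. FURIN alone passed 1.5-fold, and MBTPS1, the site-1 protease that cuts SREBP and ATF6 in the Golgi, had 67.4 UPM in 4B4 cells and 54.4 UPM in control cells (0.31). PCSK5 (-0.15) and PCSK6 (-0.10), 2 further convertases, were close to 0, and the list's median log2 ratio was 0.02. Of 12 genes for convertase inhibitors and sorting factors, 9 were measured and 0 passed 1.5-fold. With 2.1% of all measured genes higher and 5.82% lower, 0 calls in so short a list is near the background. Their median was 0.04, with FLNA, an actin cross-linker that tethers furin, at -0.19, AP1M1, an adaptor subunit, at -0.16 and the retromer-type sorting nexins SNX1 and SNX2 at 0.15 and -0.14.

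Genes for shown or presumed convertase substrates went both ways. Of 42 listed, 37 were measured, 3 were at least 1.5-fold higher, 5 at least 1.5-fold lower, and the median was -0.09, beside 2.1% of all measured genes higher and 5.82% lower. In G1 cells 1 was higher. The number lower was 9 without the MALAT1-richest tertile of cells and 2 with the phases weighing the same. The higher ones were TGFB1, a growth factor (186 UPM in 4B4 cells and 119 UPM in control cells, 0.64), MMP14, the membrane-type matrix metalloproteinase (61.8 and 40.4 UPM, 0.61), and NOTCH3, a receptor (11.2 and 7.40 UPM, 0.60). The lower ones were TGFB2 (15.9 UPM in 4B4 cells and 33.2 UPM in control cells, -1.06), SEMA3A (-0.83), ITGA6 (-0.81), BMP4 (-0.80) and PTPRK (-0.61). TGFB1 and TGFB2, ligands of the same receptors, thus had opposite ratios.

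For HTRA1 the family and its substrates were looked at in the same way. Of 4 HTRA genes 3 were measured, and HTRA3 was higher with HTRA1, at 6.16 UPM in 4B4 cells and 3.57 UPM in control cells (0.79), while HTRA2, the mitochondrial member, had 48.8 and 51.3 UPM (-0.07). Of 23 genes for shown or presumed HTRA1 substrates 15 were measured. SPP1, osteopontin, had 158 UPM in 4B4 cells and 51.2 UPM in control cells (1.63), and FN1, fibronectin, 1185 and 681 UPM (0.80). These and TGFB1 were at least 1.5-fold higher, TGFB2 was lower, and the median was 0.01. That is 3 higher and 1 lower of 15, again beside 2.1% and 5.82% of all measured genes.

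Of 6 tolloid proteases and helpers, BMP1 and PCOLCE, which enhances procollagen cutting, were measured, and PCOLCE was level at 25.8 UPM in 4B4 cells and 25.5 UPM in control cells (0.02). Of 23 genes for shown or presumed BMP1 substrates 10 were measured, and 6 of the 13 under 5 UPM were fibrillar collagen genes. COL7A1, the anchoring fibril collagen, was higher (5.68 and 3.44 UPM, 0.73). TGFBI, a matrix adaptor protein, was among the lower ones (45.0 UPM in 4B4 cells and 105 UPM in control cells, -1.22), and the median was 0.06. Of 16 genes for PRSS trypsin-like proteins the 2 measured were PRSS35 and PRSS23. Of 20 serine protease inhibitors 10 were measured, SERPINB2 (-0.68) was the 1 past 1.5-fold, and the median was 0.13. No inhibitor was that much lower with the phases weighing the same, at 20000 to 60000 UMIs per cell or without the richest 1% of cells, and 1 of 10 stands beside 5.82% of all measured genes. SPOCK1 had a ratio of 0.49.

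**Figure D5:**
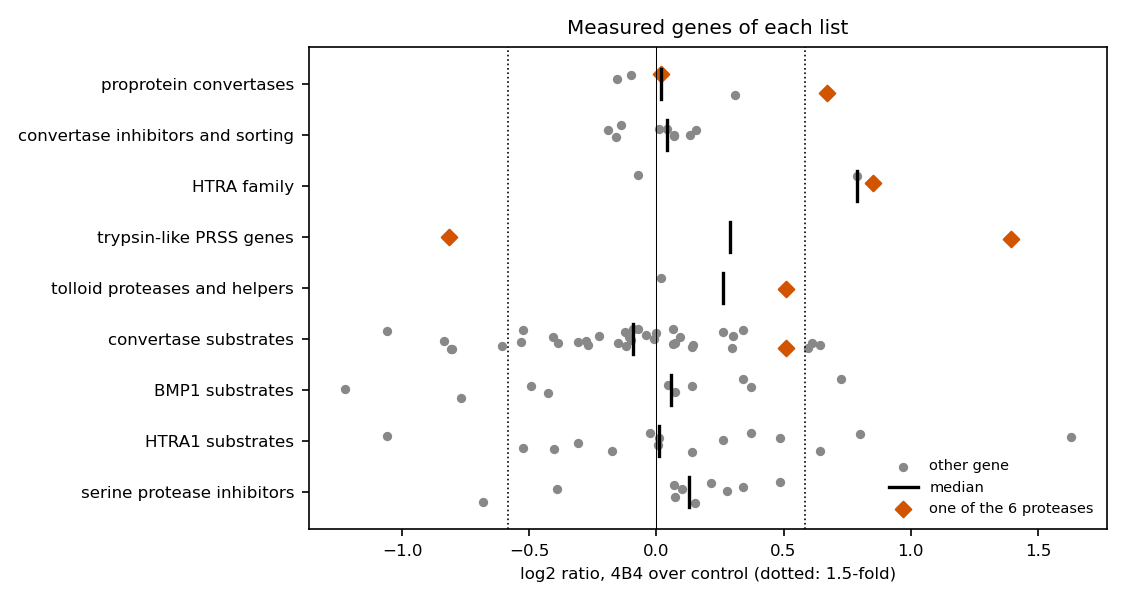
log2 ratio of 4B4 over control (x axis, dotted lines at 1.5-fold) for every gene of each list (rows) that reached 5 UPM in either library, with the list's median as a black bar and the 6 proteases as orange diamonds. Convertase inhibitors and sorting genes all lie inside the dotted lines, whereas PRSS35 (1.39) and PRSS23 (-0.81) lie far apart on their shared row.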

How the data were processed

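Single-cell RNA of 2 HT1080 cultures was measured, each as 1 library made with the 10x 3′ kit, version 3, per the labels' protocols. The authors deposited unnormalized UMI counts for each gene in each barcode. The submitters' processing notes name GRCh38, Cell Ranger 7.1.0 and Seurat 5.0.1, and neither the strand setting nor whether intron reads were counted was given in the sources used here. Groups follow the treatment labels, and 2 barcodes occurred in both libraries.

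Kept barcodes had 1000 or more genes and no more than 20% mitochondrial UMIs, which left out 374 4B4 and 240 control barcodes. Counts were summed over kept cells per 1000000 UMIs, with exact Poisson intervals and Clopper-Pearson intervals of shares and conditional ratios, all at 95%. They cover counting error only. No p-value was computed, since each group has 1 library. A gene counted as measured at 5 UPM in either library (20 UPM within a library) and as called at 1.5-fold. Thinning to 17000 UMIs left out 74 4B4 and 303 control cells. Phases were called with scanpy 1.11.5, and 52 4B4 cells and 281 control cells lay within 0.05 of a bound. No doublet caller was used, and the 5% of cells with the most UMIs were left out as an alternative. TMM scaling came from edgeR 4.0.16. Sums, ratios and thinning were tested on simulated data with numpy 2.4.6 and scipy 1.17.1 under Python 3.11.15.

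The members and gene lists were chosen with earlier results of these data known. Named genes were the members, all measured list genes past 1.5-fold and up to 4 further ones with the largest ratios, the 3 most alike genes of each member, ITGB1, and markers. ITGA11, STIM1 and EFNB1 were taken off the convertase substrate list after its values were seen, since no convertase cut of them was sure. ITGA11 had been among the higher ones. Some list genes that this rule names are not reported here. TAGLN, which overlaps PCSK7, was named after its position was seen.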

Additional observations from a re-analysis of the deposited data

Results flagged for a closer look

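HTRA1 ran in opposite directions between the libraries when G1 cells were ranked by TGF-beta response genes. Its log2 ratio of the highest over the lowest quartile was 0.43 in the 4B4 library and -0.15 in the control library, and each counting interval lay on 1 side of 0. The difference was not tested. The ranking genes themselves differed between the libraries, as PMEPA1 (1.07) and TGFBI (-1.22) did by log2 ratio of 4B4 over control. HTRA1 also differed in its order of the libraries between bins of cell depth. Its log2 ratio of 4B4 over control was -0.71 in cells under 20000 UMIs, 0.92 in cells of 20000 to 40000 UMIs, 0.97 at 40000 to 80000 UMIs, 1.20 at 80000 to 160000 UMIs and 1.49 above that, where the control library had 2 cells. This difference was not tested either. The cells under 20000 UMIs numbered 84 in the 4B4 library and 533 in the control library.

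PCSK7 had signal in barcodes outside the main comparison. In the 374 barcodes left out of the 4B4 library by the cell filter it had 41.7 UPM (34.9 to 49.5), against 25.0 UPM (16.8 to 36.0) in the 240 left out of the control library. HTRA1 had 108 UPM in the same 4B4 barcodes and 143 UPM in the control ones.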

How the results depend on the processing

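Across 13 alternatives the log2 ratios of FURIN (0.48 to 0.72), HTRA1 (0.67 to 0.97), PRSS35 (1.17 to 1.64), BMP1 (0.46 to 0.58) and PRSS23 (-1.03 to -0.58) kept their sign, and PCSK7 ran from -0.20 to 0.09. HTRA1 and PRSS35 stayed past 1.5-fold in all 13, FURIN in 11 and PRSS23 in 12. No paired analysis was possible because each group has 1 library, and for the same reason none could be left out. The causes of the changes below were not tested. PRSS35 in G2M cells of the 4B4 library is limited by few cells and UMIs, and BMP1 and PRSS35 in control quartiles by low counts.

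In thinned cells FURIN was 0.60 and HTRA1 0.92. With each cell weighing the same FURIN was 0.60 and PRSS23 -0.76. With phases weighing the same FURIN was 0.58, HTRA1 0.81 and PRSS23 -0.60, and in G1 cells HTRA1 was 0.67, PRSS35 1.17 and PRSS23 -0.58. In cells of 20000 to 60000 UMIs FURIN was 0.48, HTRA1 0.92, PRSS35 1.64 and PRSS23 -0.93. Without the third of cells richest in MALAT1 PCSK7 was -0.20, HTRA1 0.96, PRSS35 1.502 and PRSS23 -0.96. HTRA1 was 0.83 with no cell filter, 0.90 with TMM scaling and 0.81 without mitochondrial genes in the total. The stricter filter gave HTRA1 0.97 and PRSS23 -1.03, and cells of at most 10% mitochondrial UMIs 0.97 and -1.03. Without the 5% of cells with the most UMIs these were 0.91 and -0.76. Without the 1% of cells richest in it PRSS35 was 1.54.

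Genes at least 1.5-fold higher numbered 238 and lower 661. With each cell weighing the same 446 were higher. Lower were 286 with phases weighing the same, 395 in G1 cells and 1139 without the MALAT1-rich cells. With no floor 3815 were higher and 6731 lower, and at 20 UPM 122 and 300.

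Convertases past 1.5-fold higher were 0 with phases weighing the same and 0 at 20000 to 60000 UMIs. Convertase substrates higher were 1 in thinned cells, 1 with phases weighing the same, 1 without mitochondrial genes and 1 in G1 cells, and lower 2 with phases weighing the same and 9 without the MALAT1-rich cells. BMP1 substrates higher were 2 in thinned cells, 2 with each cell weighing the same, 2 at 20000 to 60000 UMIs and 2 without the deepest cells, and lower 1 in thinned cells and 1 with phases weighing the same. HTRA1 substrates lower were 2 without the MALAT1-rich cells, 2 with the stricter filter and 2 at 10% mitochondrial UMIs. Inhibitors higher were 1, 1, 2, 3 and 1 in thinned cells, with each cell or each phase weighing the same, at 20000 to 60000 UMIs and without the deepest cells. Inhibitors lower were 0 with phases weighing the same, 0 at 20000 to 60000 UMIs, 2 without the MALAT1-rich cells and 0 without the richest 1%. The tolloid list had 1 higher at 20000 to 60000 UMIs, and the PRSS list 0 lower in G1 cells.

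At 10000 UMIs per cell the shares of 4B4 and control cells were 31.4% and 22.2% for FURIN, 19.9% and 19.0% for PCSK7, 92.9% and 80.04% for HTRA1, 17.5% and 6.92% for PRSS35, 16.7% and 12.8% for BMP1, 30.6% and 43.4% for PRSS23. Without thinning they were 82.7% and 54.0% for FURIN, 68.7% and 49.2% for PCSK7, 96.2% and 94.5% for HTRA1, 50.8% and 18.7% for PRSS35, 70.8% and 38.6% for BMP1, 73.9% and 71.9% for PRSS23. The direction between the libraries held at both depths except for PRSS23 without thinning.

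At 10000 UMIs per cell S over G1 was -0.61 for HTRA1 in the 4B4 library and -0.90 for PRSS35 in the control library, and G2M over G1 of PCSK7 was 0.78 and 0.0064 in the 4B4 and control libraries. In the 4B4 library the highest over lowest quartile gave PRSS35 0.35 and PRSS23 0.48 by YAP targets, HTRA1 0.34 and PRSS23 0.85 by TGF-beta response, FURIN 0.026 and HTRA1 0.62 by ER stress, and BMP1 0.74 by MALAT1. In the control library it gave BMP1 -0.49 by TGF-beta response, HTRA1 0.24 by ER stress and PCSK7 0.094 by mitochondrial share. With tertiles in place of quartiles HTRA1 had 0.60 in the 4B4 and 0.26 in the control library by ER stress, and -0.38 in the control library by YAP targets.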

Other observations

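Cells with several UMIs of a member differed in make-up from cells with none. Control cells with 2 or more PRSS23 UMIs at equal depth were in G1 in 51.9% of 1017 cells, against 82.0% of 1263 control cells without one. In the 4B4 library the shares were 78.4% of 231 cells and 90.2% of 747 cells. Cells without any HTRA1 UMI were in G1 in 72.7% of 33 4B4 cells and 53.0% of 338 control cells, below the 88.5% and 73.8% of cells with 2 or more. These follow the phase differences of the same genes and add no independent support.

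Cells with 2 or more PCSK7 UMIs had a median of 363 MALAT1 UMIs in the 4B4 library, against 72 in 4B4 cells with none. In the control library the medians were 144 and 129.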
